A study of Mus musculus and Sus scrofa with 12 samples.

Results

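H3K27ac peaks that lie over 250 kb from the start of every coding gene are described here in the embryonic forelimbs of mouse and pig. In each species, a far peak is an H3K27ac peak that overlapped no H3K4me3 peak and whose middle lay over 250 kb from the nearest transcription start site (TSS) of a coding gene in the RefSeq annotation. This rule chose 2419 of the 48441 deposited H3K27ac peaks, 961 of 20875 in mouse and 1458 of 27566 in pig. H3K27ac, H3K4me3 and H3K4me1 were mapped by ChIPmentation, a chromatin immunoprecipitation in which a transposase adds the sequencing adapters, in wild-type mouse forelimbs at stage E11.5 and wild-type pig forelimbs at day 23 of gestation. Whole forelimbs of littermates were fixed with formaldehyde, so each list mixes all cell types of the bud, and a mark in few cells cannot be told apart from a weak mark in many. The labels name 12 samples, 2 per modification and species, but the deposited data are 6 lists of peak positions, 1 per modification and species, with no value per replicate or per peak. No test between animals, species or peak classes is therefore possible, and the comparisons below are counts and shares with 95% Wilson intervals, which cover counting error only.

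H3K27ac is laid down by acetyltransferases at active promoters and enhancers, H3K4me1 marks enhancers whether or not they are active, and H3K4me3 marks promoters. Some enhancers lie in gene deserts, long stretches without coding genes, and act on a bordering gene over long distances by chromatin looping. In the limb bud, genes for transcription factors and signalling proteins are known for distant enhancers, whether in a desert or not. The limb enhancer of the Shh gene is the textbook case of action over a long distance. A histone mark alone does not show that a sequence is an enhancer or which gene it acts on.

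Sequences are shown first for 5 deserts bordered by the same genes in both species, in each of which the match of a mouse far peak overlapped a pig H3K27ac peak by at least 1 bp. Each pair gives the same stretch of the match in mouse (GRCm38) and pig (Sscrofa11.1), and capitals mark the longest run of bases identical in both. The stretch is a part of its match that holds this run, and the identities below are of the stretch unless said otherwise. The whole matches were less identical in all 5 pairs, at 70.5% to 83.3%.

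In the desert between Slc4a3 and Epha4 the mouse bases are chr1:77085100-77085277, plus strand, and the pig bases chr15:123039128-123039300, plus strand. They were 72.8% identical, with a longest run of 19 bases.

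Slc4a3-Epha4 mouse: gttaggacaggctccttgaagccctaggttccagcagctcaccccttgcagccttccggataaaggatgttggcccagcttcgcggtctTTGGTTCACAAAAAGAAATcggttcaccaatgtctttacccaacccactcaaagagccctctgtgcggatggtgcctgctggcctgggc

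SLC4A3-EPHA4 pig: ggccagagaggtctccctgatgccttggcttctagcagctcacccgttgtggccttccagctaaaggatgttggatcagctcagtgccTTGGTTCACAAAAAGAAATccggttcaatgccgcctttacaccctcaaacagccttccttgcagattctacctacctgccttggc

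In the desert between Mki67 and Mgmt the mouse bases are chr7:136341696-136341875, plus strand, and the pig bases chr14:137934885-137935064, plus strand. They were 85.4% identical, with a longest run of 51 bases, the longest of the 5 pairs.

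Mki67-Mgmt mouse: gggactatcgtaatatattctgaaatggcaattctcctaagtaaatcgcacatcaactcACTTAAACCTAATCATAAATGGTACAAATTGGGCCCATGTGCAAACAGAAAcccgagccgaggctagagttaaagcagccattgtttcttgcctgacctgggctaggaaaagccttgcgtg

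MKI67-MGMT pig: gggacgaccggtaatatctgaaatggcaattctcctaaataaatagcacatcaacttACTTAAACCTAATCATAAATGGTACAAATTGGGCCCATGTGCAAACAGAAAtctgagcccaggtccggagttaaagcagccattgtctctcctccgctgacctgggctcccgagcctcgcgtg

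In the desert between Rad51b and Zfp36l1 the mouse bases are chr12:79777012-79777200, plus strand, and the pig bases chr7:92134609-92134807, plus strand. They were 75.4% identical, with a longest run of 15 bases. Of the 199 pig bases, 80 lay under the pig H3K27ac peak and the capitals lay outside it. The mouse peak is the only one of the 5 that overlapped no H3K4me1 peak.

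Rad51b-Zfp36l1 mouse: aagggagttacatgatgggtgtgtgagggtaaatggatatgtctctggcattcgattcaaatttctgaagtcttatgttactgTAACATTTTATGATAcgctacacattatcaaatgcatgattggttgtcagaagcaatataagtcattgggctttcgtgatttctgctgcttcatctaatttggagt

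RAD51B-ZFP36L1 pig: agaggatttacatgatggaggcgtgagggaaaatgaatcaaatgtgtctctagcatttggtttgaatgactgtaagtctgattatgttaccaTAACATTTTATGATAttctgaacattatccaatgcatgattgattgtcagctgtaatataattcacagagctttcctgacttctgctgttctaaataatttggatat

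In the desert between Ccdc171 and Bnc2 the mouse bases are chr4:83926644-83926795, plus strand, and the pig bases chr1:206736582-206736733, minus strand. They were 94.1% identical, the closest of the 5 printed stretches, with a longest run of 37 bases. The whole match of 507 bases was 78.5% identical, below the 83.3% of the whole Mki67-Mgmt match. Of the 152 pig bases, 51 lay under the pig H3K27ac peak and the capitals lay outside it. This pig peak also overlapped H3K4me3, so it is not a far peak by the rule. In the other 4 pairs the pig peak is a far peak.

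Ccdc171-Bnc2 mouse: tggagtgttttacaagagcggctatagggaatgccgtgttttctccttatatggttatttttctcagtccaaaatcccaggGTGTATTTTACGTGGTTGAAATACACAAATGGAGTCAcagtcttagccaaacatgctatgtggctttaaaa

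CCDC171-BNC2 pig: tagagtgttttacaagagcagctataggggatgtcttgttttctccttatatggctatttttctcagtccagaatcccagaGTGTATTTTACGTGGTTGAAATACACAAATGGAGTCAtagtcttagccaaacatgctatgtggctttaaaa

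In the desert between Ets1 and Kirrel3 the mouse bases are chr9:33062665-33062774, plus strand, and the pig bases chr9:55101140-55101250, minus strand. They were 80.2% identical, with a longest run of 23 bases, and both held the 6-letter core CATCTG, the E-box bound by TWIST and HAND factors, read on either strand. None of the other 4 pairs held this core, the core ACCACCC of GLI factors, the homeodomain core TAATTA or the core ACAAAG of SOX factors.

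Ets1-Kirrel3 mouse: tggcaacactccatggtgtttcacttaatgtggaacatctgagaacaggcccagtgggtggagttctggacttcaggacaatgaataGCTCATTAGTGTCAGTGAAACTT

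ETS1-KIRREL3 pig: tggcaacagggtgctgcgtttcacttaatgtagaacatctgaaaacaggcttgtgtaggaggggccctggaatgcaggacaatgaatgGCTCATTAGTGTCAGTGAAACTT

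The mouse peak in the Slc4a3-Epha4 desert lay 432 kb from the nearest coding TSS and its pig counterpart 463 kb. In the Mki67-Mgmt desert these distances were 552 and 567 kb, in the Rad51b-Zfp36l1 desert 335 and 361 kb, in the Ccdc171-Bnc2 desert 399.7 and, for the pig peak with H3K4me3, 406 kb, and in the Ets1-Kirrel3 desert 366 and 344 kb. The peaks were chosen for a match that overlaps a pig H3K27ac peak, so this is a description.

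Far peaks were a small part of H3K27ac in both species. On assembled chromosomes they made up 4.61% of all H3K27ac peaks in mouse (95% interval 4.33 to 4.90) and 5.36% in pig (5.10 to 5.63). Of the H3K27ac peaks without H3K4me3, they were 961 of 11421 in mouse and 1458 of 16573 in pig, and the others, called nearer peaks below, numbered 10460 and 15115. A further 52 mouse and 80 pig H3K27ac peaks lay as far from coding starts but overlapped H3K4me3 and are not members.

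The tissue was checked at the start sites of marker genes, within 1 kb of a TSS. Tbx5, the forelimb selector gene, carried H3K4me3 and H3K27ac in both species, and the hindlimb genes Pitx1 and Tbx4 carried H3K4me3 without H3K27ac in both. Twist1, a factor of limb mesenchyme, carried all 3 modifications in both species, whereas Prrx1, another one, carried them in mouse but only H3K4me1 in pig. Among markers of other cells that a limb bud holds, H3K27ac lay at Klf1 of red blood cells, Myf5 of muscle precursors and Trp63 of ectoderm in mouse, at none of these in pig. It was absent in both species from Gata1 of blood, Pax3 of muscle precursors, Kdr and Cdh5 of endothelium and Sox10 and Foxd3 of neural crest, and in mouse from Krt14 of ectoderm. The share of far peaks that comes from such cells was not tested.

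The typical far peak lay at 371 kb from a coding start in mouse and 364 kb in pig, as medians. The distance ran up to 2188 kb in mouse, in the desert between Celf4 and Pik3c3, and to 1727 kb in pig, in the interval between WWC1 and TENM2, where the peak lay inside the long TENM2 gene, which codes for a teneurin of nerve cells. These 2 peaks were singled out after their values were seen. Just inside the limit, the 3 nearest mouse members lay at 250.1 to 250.5 kb and the 3 nearest pig members at 250.1 to 250.4 kb, while the first 3 peaks left out lay at 249.7 to 249.9 kb and 249.5 to 249.8 kb.

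Far peaks were slightly narrower than nearer peaks. The median width was 2285 bp in mouse (quartiles 1234 to 3552), against 2698 bp for nearer peaks (1557 to 3806). In pig it was 864 bp (569 to 1286), against 903 bp (583 to 1338). The widest mouse far peak, of 8431 bp, lay 296 kb from the Dcdc2c start in the desert between Sox11 and Dcdc2c, and H3K4me1 peaks covered 5758 bp of it. The widest in pig, of 3112 bp, lay 467 kb from a start in the desert between RPS24 and ZMIZ1, with 2999 bp under H3K4me1. Pig nearer peaks were narrower than mouse ones too, so widths of the 2 species are given side by side only.

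H3K4me1 overlapped 442 of the 961 mouse far peaks, 45.99% (42.9 to 49.2), against 48.9% of nearer peaks (47.9 to 49.9). All mouse H3K27ac peaks without H3K4me3 together had a share of 48.7%. In pig it overlapped 1003 of 1458 far peaks, 68.8% (66.4 to 71.1), against 72.7% of nearer peaks (72.0 to 73.4) and 72.4% of both together. Far peaks were thus a few points below the background in both species, and in mouse the interval of the far peaks reached it.

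The share with H3K4me1 was lowest at the greatest distances. In mouse it was 48.2% at 250 to 500 kb (44.5 to 51.8, 714 peaks), 42.2% at 500 to 1000 kb (35.8 to 48.8, 218 peaks) and 20.7% beyond 1000 kb (9.85 to 38.4, 29 peaks). In pig the 3 shares were 71.5% (68.8 to 74.0, 1144 peaks), 60.8% (55.1 to 66.3, 286 peaks) and 39.3% (23.6 to 57.6, 28 peaks). Among nearer peaks the share moved by less, between 48.4% and 49.9% over 4 distance classes in mouse and between 70.5% and 75.3% in pig. The order was the same in both species, but the farthest class rests on few peaks.

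**Figure D1:**
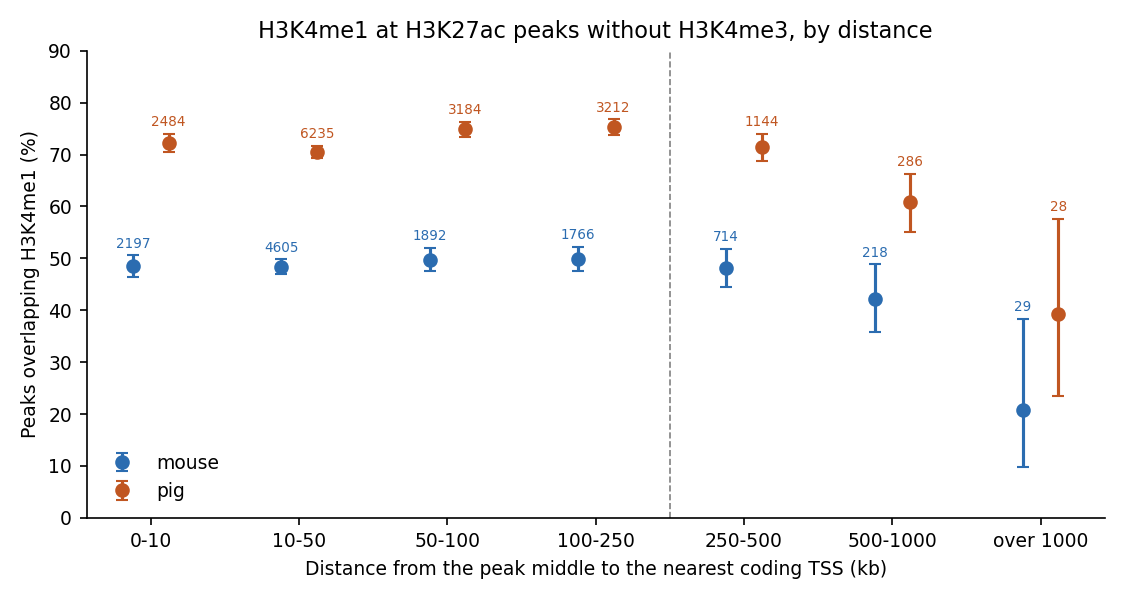
Share of H3K27ac peaks without H3K4me3 that overlap an H3K4me1 peak (vertical axis, percent) by distance of the peak middle from the nearest coding TSS (horizontal axis, kb, classes of unequal width), in mouse (blue) and pig (orange). Bars are 95% Wilson intervals, the small figures are numbers of peaks, and peaks right of the dashed line are far peaks; the share beyond 1000 kb was 20.7% in mouse and 39.3% in pig.

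Width went with H3K4me1 in mouse. Of the narrowest of 3 equal classes of mouse far peaks, up to 1564 bp, 21.2% overlapped H3K4me1 (17.1 to 26.1), of the middle class 47.0% and of the widest, over 3096 bp, 69.7% (64.4 to 74.5). Nearer mouse peaks of these widths gave 29.1%, 45.6% and 63.9%. In pig the far peaks gave 67.1%, 68.3% and 71.0% in their 3 width classes, and the nearer peaks 63.1%, 71.4% and 82.1%. A longer peak has more room to touch another one by 1 bp, and where at least 50% of the peak had to be covered, the far peaks gave 42.9% in mouse and 68.0% in pig.

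Most far peaks lay between genes. Only 144 mouse far peaks, 15.0% (12.9 to 17.4), overlapped a coding gene, against 55.7% of nearer peaks and 52.2% of all H3K27ac peaks without H3K4me3. In pig 368 did, 25.2% (23.1 to 27.5), against 60.05% of nearer peaks and a background of 57%. A place over 250 kb from a start can be inside a gene only where the gene is long, so the direction of this difference follows from the rule. Coding exons were touched by 19 mouse and 34 pig far peaks, 1.98% and 2.33%, so nearly all far peaks inside genes lay in introns.

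The genes that held most far peaks were Auts2 with 7, Rad51b and Wwox with 6 each, and Ptprn2 and Rbms3 with 5 each in mouse. In pig they were RAD51B with 25, PARD3 with 12, TENM4 with 11, and SLIT3 and SMYD3 with 10 each, all named here after their counts were seen. RAD51B, which codes for a protein of recombination repair, was the one gene among the 5 leaders of both species, and it spans 551 kb in mouse and 709 kb in pig. H3K4me1 overlapped 73 of the 144 mouse far peaks inside genes, 50.7% (42.6 to 58.7), and 45.2% (41.8 to 48.6) of those outside. In pig the order was the other way, with 63.9% (58.8 to 68.6) inside genes and 70.5% (67.7 to 73.1) outside.

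Annotated long non-coding RNA genes overlapped 156 mouse far peaks, 16.2% (14.0 to 18.7), against 12.8% of nearer peaks. In pig they overlapped 309, 21.2% (19.2 to 23.4), against 8.77%. Starts of non-coding genes were rarely close: 22 mouse and 21 pig far peaks, 2.29% and 1.44%, lay within 1 kb of one, near the 2.38% and 1.21% of nearer peaks.

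Far peaks lay farther apart than nearer ones. Another far peak lay within 50 kb of 45.4% of mouse far peaks and 61.2% of pig far peaks, while another nearer peak lay within that distance of 59.2% and 74.0% of nearer peaks. The median gap to the next peak of the same class was 63.3 kb against 35.4 kb in mouse and 25.9 kb against 18.4 kb in pig. Only peaks of the same class counted, and far peaks are fewer, 961 against 10460 in mouse and 1458 against 15115 in pig. The part of these numbers in the gaps was not tested.

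In base composition, far peaks were slightly lower in G and C than nearer peaks over the middle 300 bases. The median was 45.3% in mouse against 47.3%, and 54.7% in pig against 55.7%. The homeodomain core TAATTA, searched on both strands, stood in 7.91% of mouse far peaks (6.36 to 9.79), against 6.03% of nearer ones (5.59 to 6.51), and in 3.02% of pig far peaks (2.26 to 4.03), against 2.39% (2.16 to 2.65). The GLI core ACCACCC stood in 3.54% of mouse far peaks against 4.48% of nearer peaks, and in 7.41% against 7.04% in pig. The SOX core ACAAAG gave 25.8% against 26.5% in mouse and 19.8% against 18.8% in pig, and the E-box CATCTG 23.5% against 24.6% and 27.3% against 26.6%. For all 4 cores the intervals of far and nearer peaks overlapped in both species.

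A desert is taken here as an interval of over 500 kb between the starts of adjacent coding genes, or of over 250 kb from the last start to a chromosome end, since only such intervals can hold a far peak. Mouse had 974 of them and 363, 37.3%, held at least 1 far peak. Pig had 906 and 419, 46.2%, did. The deserts that held far peaks had a median length of 1.01 Mb in mouse and 0.946 Mb in pig, against 0.758 and 0.696 Mb for the others.

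Most of these deserts held few far peaks. A single one lay in 166 of the 363 mouse deserts and 171 of the 419 pig deserts, 133 and 161 held at least 3, and 7 and 37 held at least 10. The 10 fullest deserts held 114 mouse far peaks, 11.9% of the total, and 226 pig far peaks, 15.5%. The deserts that held far peaks were also richer in H3K4me1, with 22.5 H3K4me1 peaks per Mb in mouse against 9.18 in the others, and 40.0 against 19.0 in pig. In 81 mouse and 157 pig deserts every far peak overlapped H3K4me1, and in 140 and 110 none did.

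The fullest mouse desert lay between Cdh11, a cadherin of mesenchymal and bone-forming cells, and Cdh5, the cadherin of endothelium. It spanned 1.32 Mb on chromosome 8 and held 18 far peaks, 14 of which overlapped H3K4me1. Its pig counterpart also ended at CDH5 and held 22 far peaks, 20 with H3K4me1, but its other border was the annotated coding locus LOC106507571, which stands next to CDH11. It is therefore not among the same-border deserts below. In both species the Cdh5 start carried no H3K27ac.

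The other leading mouse deserts were bordered mostly by genes of other functions. The desert between Nrsn1, a membrane protein of nerve cells, and Hdgfl1 held 15 far peaks, 10 with H3K4me1. Zfp516 and Tshz1, both zinc finger genes, bordered 12 far peaks, 8 with H3K4me1. Sox11, a SOX factor of progenitor cells, and Dcdc2c bordered 11, and Marcks, a protein at the inner face of the cell membrane, and Rfpl4b bordered 11 as well. The remaining deserts of the first 10 were Dok5-Cbln4 and Eno1b-Dtwd2 with 10 each, and Wac-Fzd8, Mc2r-Tcf4 and Bcl11a-Fancl with 9 each. Usp25-Cxadr and Slc4a3-Epha4 also held 9 and came after them by the length that far peaks cover. Fzd8 codes for a WNT receptor, Tcf4 for a basic helix-loop-helix factor and Bcl11a for a zinc finger repressor.

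The fullest pig desert, between SOX11 and DCDC2C, held 35 far peaks over 1.39 Mb, 29 with H3K4me1. MKI67, the gene of the Ki-67 protein of dividing cells, and MGMT, a DNA repair enzyme, bordered 28, and RAD51B and ZFP36L1, an RNA-binding protein that promotes messenger decay, bordered 25, all inside RAD51B. NFE2L3, a basic leucine zipper factor, and NPVF, a neuropeptide gene, bordered 22, 20 of them with H3K4me1. INHBA, a subunit of activin, and SUGCT bordered 21, of which 8 lay inside SUGCT, and RPS24, a ribosomal protein gene, and ZMIZ1 bordered 20. COBL-VSTM2A held 19, and VRK1-BCL11B and CMPK2-SOX11 17 each, a count that BCL11A-FANCL and NRP1-PARD3 also reached with less length covered. SOX11 thus bordered a full desert on either side.

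**Figure D2:**
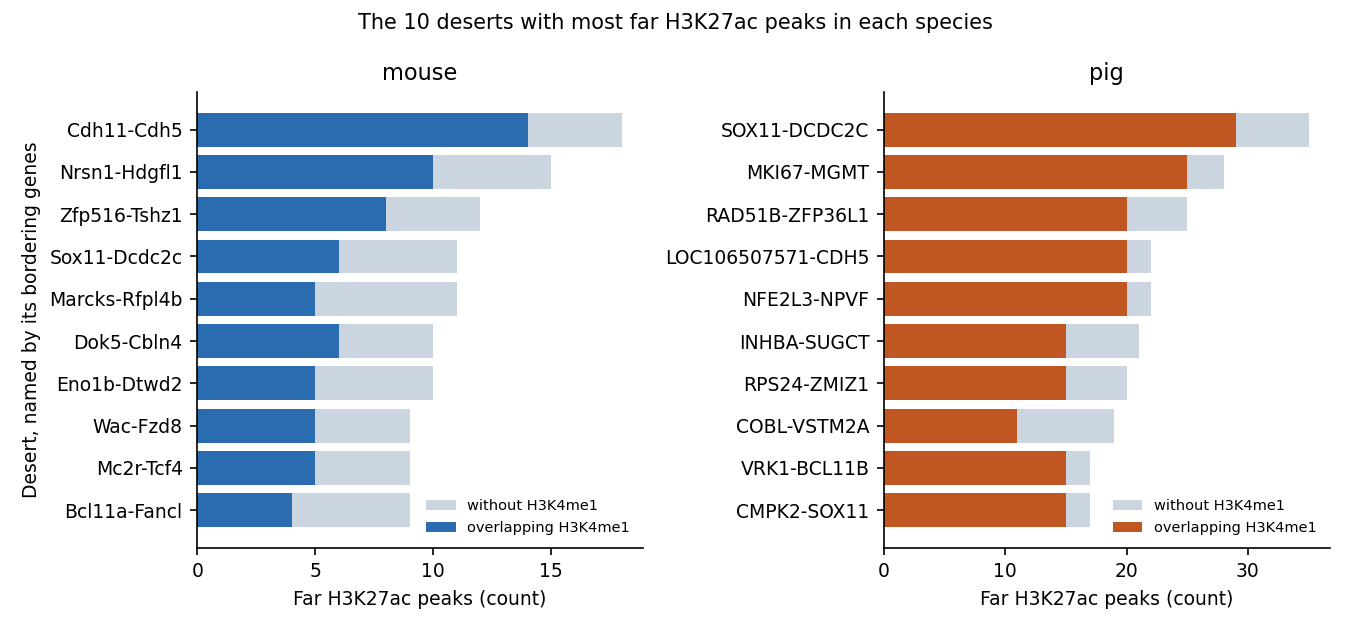
Number of far H3K27ac peaks (horizontal axis) in the 10 fullest deserts of mouse (left) and pig (right), named by their bordering genes; the coloured part of each bar counts peaks that overlap H3K4me1 and the grey part those that do not. The mouse counts run from 9 to 18 and the pig counts from 17 to 35.

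Bordering genes were looked at as a group, each counted once. Genes of transcription factor and cofactor families, chosen by symbol prefix, were 78 of the 676 mouse genes that border a desert with far peaks, 11.54% (9.34 to 14.2), against 5.43% (4.15 to 7.07) of the 939 genes that border only deserts without and 7.99% of all border genes of deserts, and the first pair of intervals did not overlap. In pig they were 81 of 775, 10.5% (8.49 to 12.8), against 7.47% (5.79 to 9.60) of 736 and 9% of all border genes, and the first pair of intervals overlapped. Where the desert held at least 3 far peaks, the share was 15.6% (11.6 to 20.5) in mouse and 14.6% (11.09 to 18.87) in pig. Over all coding genes it was 4.59% and 4.42%.

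H3K27ac at the start of the bordering gene was also commoner where the desert held far peaks. In mouse, 57.7% of border genes of such deserts (53.9 to 61.4) had an H3K27ac peak within 1 kb of a TSS, against 37.4% (34.3 to 40.5) for other deserts and 45.9% of all border genes. In pig it was 63.0% (59.5 to 66.3) against 48.6% (45.0 to 52.2), and 56% of all. Among border genes of the transcription factor families, 64 of 78 in mouse, 82.1% (72.1 to 89.0), and 63 of 81 in pig, 77.8% (67.6 to 85.5), carried it. Where the desert held no far peak, 26 of 51 and 20 of 55 such genes did, and over all such genes that border a desert 69.8% and 61.0% did. The direction was not particular to H3K27ac. H3K4me3 lay at the start of 84.3% of mouse border genes of deserts with far peaks, against 63.3% for other deserts. In pig the H3K4me3 shares were 81.4% and 71.7%.

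Far peaks did not lie only in deserts with a marked border. Of the 358 mouse deserts between 2 different genes that held far peaks, 117 had H3K27ac at both borders, 182 at 1 and 59 at neither, and these 59 held 134 far peaks. In pig, 162 of 413 had it at both, 193 at 1 and 58 at neither, with 207 far peaks in the last. Where just 1 border was marked, it was the nearer border for 56.8% of the mouse far peaks (52.2 to 61.3). In pig it was so for 52.7% (48.9 to 56.6). These peaks lay in 182 mouse and 193 pig deserts, and peaks of the same desert share its borders. The intervals count each peak as independent, so no comparison with an even division is drawn.

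Genes of limb development were then taken from gene lists. Of 51 genes for limb mesenchyme factors, 20 border a desert in mouse and 14 of these bordered one with far peaks, where 41.9% of all border genes did. In pig 20 border a desert and 11 bordered one with far peaks, where 51.3% of all border genes did. These are counts of few genes, and the lists were made with earlier results known.

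Tbx3, a T-box gene expressed at the limb margins, bordered 5 far peaks in mouse and 16 in pig, in the desert shared with Med13l. Sall1, a zinc finger gene of the limb, bordered 5 and 7, in the desert shared with Tox3, and Twist1 bordered 4 and 3, in the desert shared with Hdac9. Shox2, a homeobox gene of the proximal limb, bordered 4 and Hand2, a factor of the posterior limb bud, 3 in mouse, all 3 of the latter with H3K4me1. In pig SALL3 bordered 9 and OSR1 4.

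Among cartilage and joint genes, 5 of the 7 that border a desert in mouse and 5 of the 6 in pig bordered far peaks, beside 41.9% and 51.3% of all border genes. Sox9, the master factor of cartilage, bordered 8 in mouse over its deserts on both sides and 3 in pig. SOX6, its partner in cartilage, bordered 12 in pig and 1 in mouse, in the desert shared with INSC. Trps1, a GATA-type repressor, bordered 5 in mouse and 2 in pig, and RUNX2, the factor of bone formation, bordered 5 in pig.

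Of the signalling genes, Id2, a BMP-responsive inhibitor of helix-loop-helix factors, bordered 8 far peaks in mouse and 15 in pig. The latter was the highest pig count in the BMP, WNT, FGF and hedgehog lists. The shares of all border genes, 41.9% in mouse and 51.3% in pig, stand as background to the following counts of few genes, several of which are near them. Of BMP genes that border a desert, 5 of 6 in mouse and 6 of 8 in pig bordered far peaks. WNT genes counted 4 of 7 and 6 of 9, with Fzd8 at 9 and 4 and Wnt5a at 3 and 4, and FGF genes 3 of 4 and 5 of 6, with Fgf9 at 3 and 3 and Fgf10, the ligand that starts limb outgrowth, at 2 and 1. The hedgehog genes gave 1 of 2 in each species, Gli3 with 1 in mouse and GAS1 with 2 in pig.

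Few genes of other cells and of other limbs border a desert, and Cdh5 bordered the most far peaks among them. No housekeeping or ectoderm gene of the lists borders a desert in either species. The 1 hindlimb gene that does bordered no far peak in either species, nor did the 1 neural crest gene in mouse and the 2 in pig. Of blood genes, 2 border a desert in mouse and both bordered far peaks, Ptprc, the CD45 antigen, 6 and Runx1 1. Of 2 muscle precursor genes that border a desert in mouse, Eya1 bordered 1 far peak. In pig the 1 blood gene and the 2 muscle precursor genes that border a desert bordered none. Over all border genes, 41.9% in mouse and 51.3% in pig bordered far peaks.

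Deserts with the same border genes in both species were found by symbol, letter case ignored. They numbered 421, which is 45.7% of the 922 mouse and 48% of the 877 pig deserts between 2 different genes. Far peaks lay in 133 of them in both species, in 62 in mouse only, in 80 in pig only and in 146 in neither. The 133 are 37.2% of the mouse deserts with far peaks (32.3 to 42.3) and 32.2% of the pig ones (27.9 to 36.9). They hold 436 of the 961 mouse far peaks, 45.4%, and 626 of the 1458 pig far peaks, 42.9%.

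A same-border desert that held far peaks in mouse did so in pig in 133 of 195 cases, 68.2% (61.4 to 74.3), against 80 of 226, 35.4% (29.5 to 41.8), where the mouse desert held none. Over all same-border deserts the share with far peaks was 46.3% in mouse and 50.6% in pig. Longer deserts have more room in both species, and within 3 length classes of the mouse desert the pig shares were 48.6%, 68.1% and 76.7% where mouse held far peaks and 27.9%, 31.3% and 54.5% where it did not. The order was the same in each class. Length still varies within a class, from 1.11 to 4.51 Mb in the longest, and its part in the shares was not tested.

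All 62 deserts with far peaks in mouse only held H3K4me1 peaks in pig, and 45 held an H3K27ac peak of another kind, closer to a start or with H3K4me3. All 80 with far peaks in pig only held H3K4me1 in mouse, and 57 held such an H3K27ac peak. H3K4me1 peaks were present in nearly all same-border deserts, 413 of 421 in mouse and 415 in pig, so their presence hardly separates these deserts from the rest.

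Of the 133 deserts with far peaks in both species, pig had more in 58, mouse more in 50 and both the same number in 25. At least 3 in each species were found in 39. At least 1 border carried H3K27ac at its start in 117 of the 133 in mouse and 118 in pig. H3K4me1 overlapped 209 of the 436 mouse far peaks in them, 47.9% (43.3 to 52.6), and 468 of the 626 pig ones, 74.8% (71.2 to 78.0).

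By the smaller of both counts, Sox11-Dcdc2c led with 11 far peaks in mouse and 35 in pig. In mouse they lay between 296 and 724 kb from the Dcdc2c start, 6 with H3K4me1, and in pig between 264 and 1124 kb, 29 with H3K4me1. Far peaks in pig thus lay closer to SOX11 than any in mouse did. The Sox11 start carried H3K27ac in both species and the Dcdc2c start in neither.

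Bcl11a-Fancl held 9 far peaks in mouse and 17 in pig, with H3K4me1 at 4 and 14, and both borders carried H3K27ac in both species. Slc4a3-Epha4, next to the gene of an ephrin receptor, held 9 and 12, with H3K4me1 at 6 and 11. In pig 10 of those 12 lay between 1363 and 1614 kb from EPHA4, whereas the mouse ones were spread from 432 to 1709 kb. Id2-Rnf144a held 8 and 15, with H3K4me1 at only 2 in mouse and at 12 in pig.

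Mki67-Mgmt held 7 far peaks in mouse and 28 in pig, Cmpk2-Sox11 7 and 17, and Rad51b-Zfp36l1 6 and 25. Ccdc171-Bnc2 and Ets1-Kirrel3 held 6 in mouse and 11 in pig each. Nrsn1-Hdgfl1 was the exception in the direction, with 15 in mouse and 7 in pig. The larger pig counts in these deserts go with a larger pig list and narrower pig peaks, and the part of these in the counts was not tested.

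**Figure D3:**
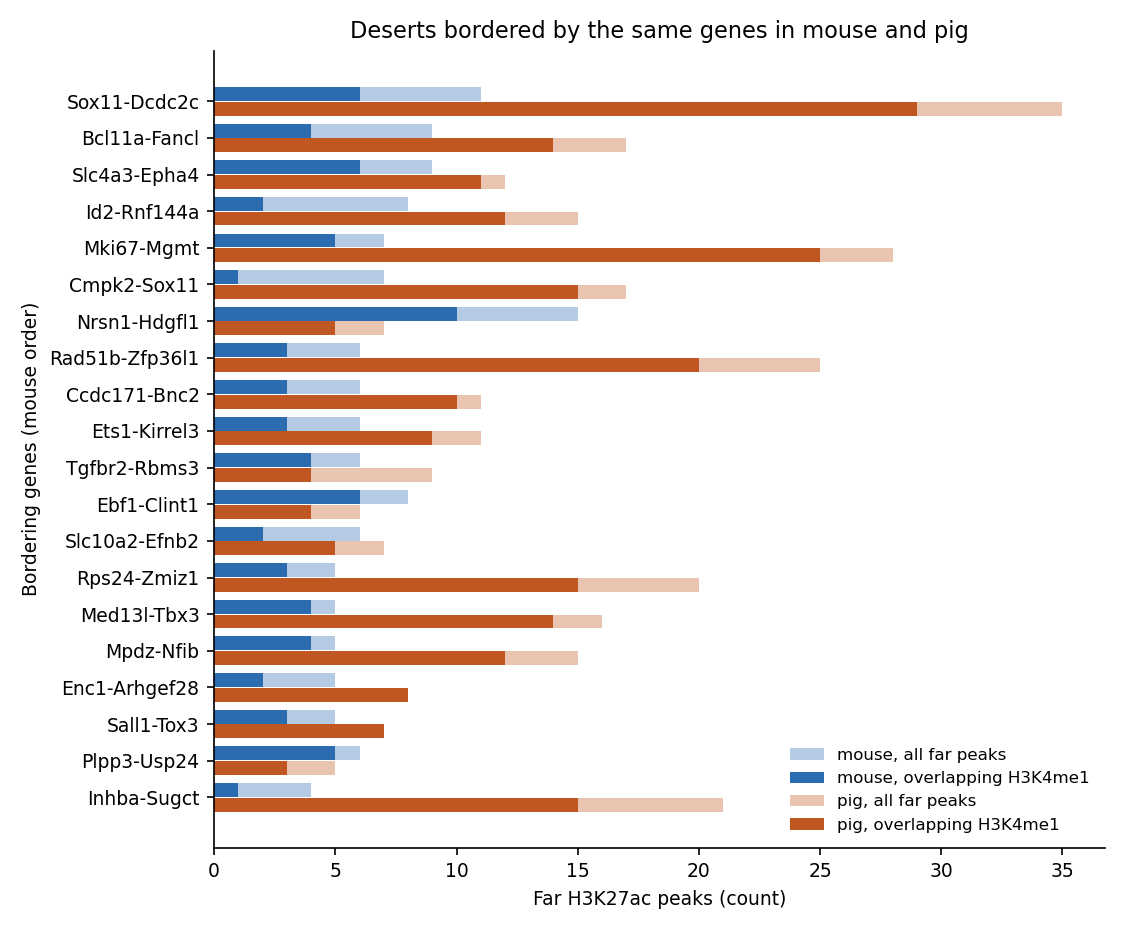
Far H3K27ac peaks (horizontal axis, count) in the 20 deserts bordered by the same genes in both species with the largest smaller count, mouse in blue and pig in orange; the dark part of each bar counts peaks that overlap H3K4me1. Sox11-Dcdc2c leads with 11 in mouse and 35 in pig, and Nrsn1-Hdgfl1 has more in mouse, 15 against 7.

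Where the far peaks of both species lie on the same DNA was asked by searching each of the 436 mouse far peaks, repeats masked, in the pig desert with the same borders. A match at an E value of 1e-10 or lower was found for 188, 43.1% (38.6 to 47.8). Against all 133 pig deserts together 190 had a match, and for 187 of these the best one lay in the desert with the same borders. The matches had a median length of 283.5 bases and a median identity of 77.8%.

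The matches lay at like places. The relative position in the desert differed by at most 5 percentage points in 151 of 188 peaks, 80.3%, with a median difference of 2.45 points. In the Ets1-Kirrel3 desert, for example, a mouse far peak with its match at 277 kb from Ets1 had the pig match at 277 kb, and in Mki67-Mgmt mouse matches at 725 and 743 kb from Mgmt had pig matches at 765 and 790 kb.

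**Figure D4:**
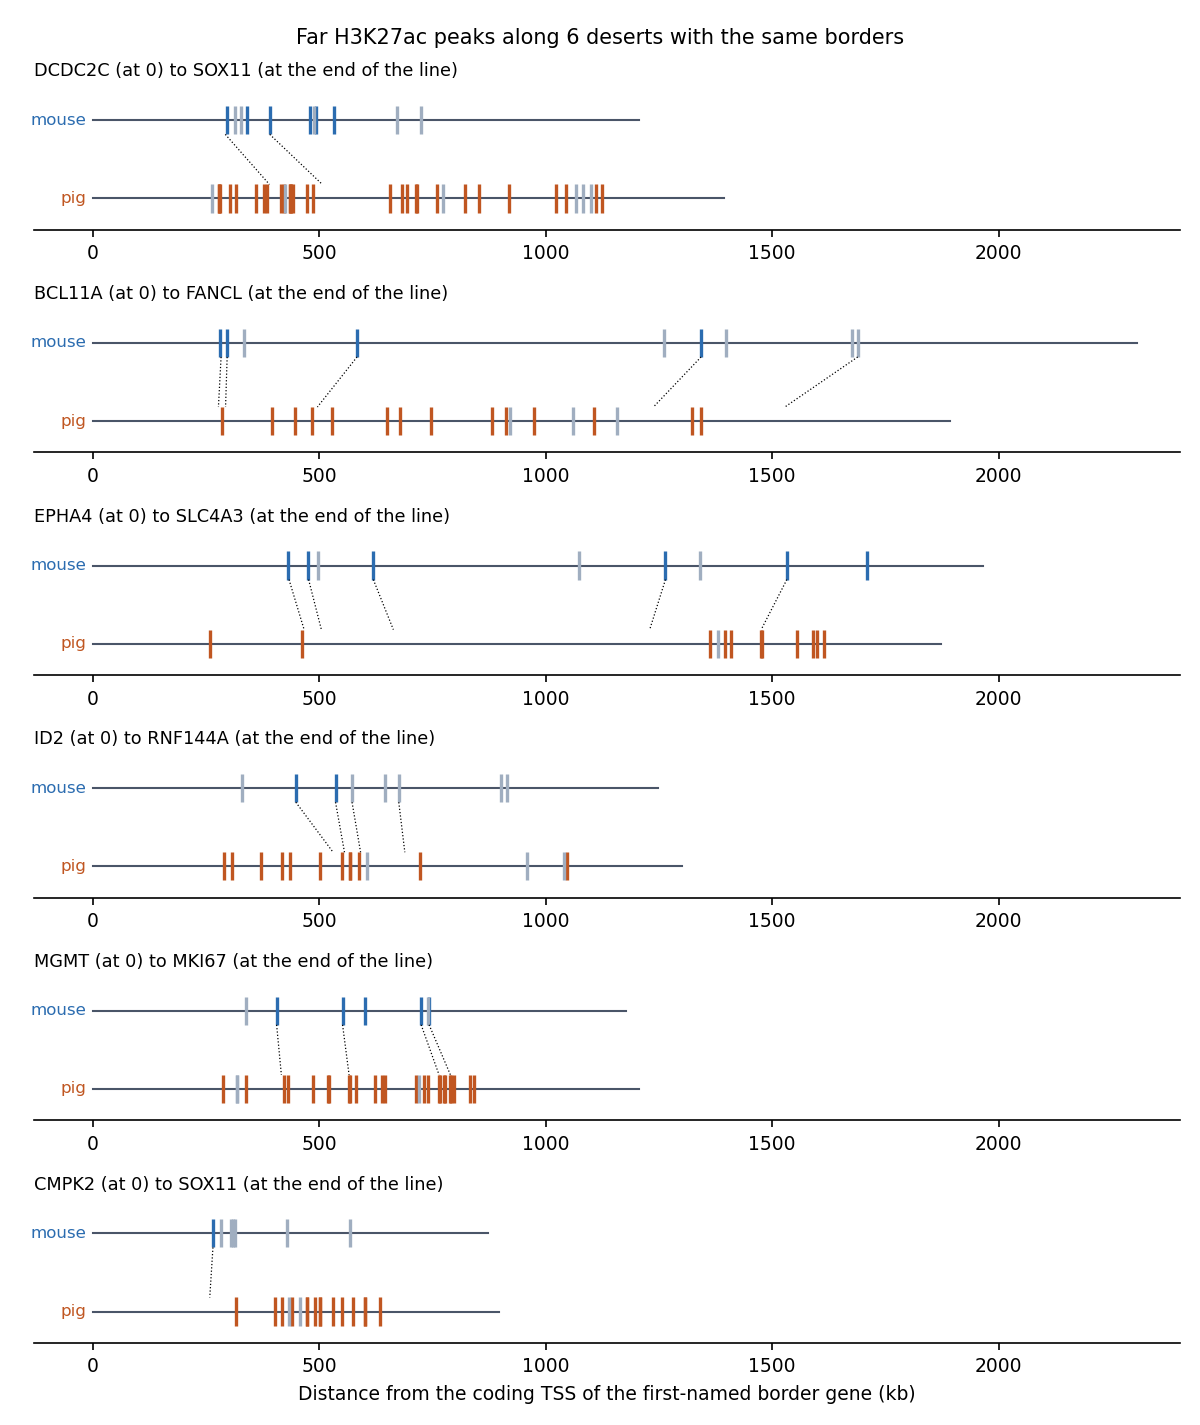
Far H3K27ac peaks (vertical ticks) along 6 deserts with the same borders, by distance in kb from the coding TSS of the gene named first above each line (Dcdc2c in the top panel), mouse above and pig below. Blue or orange ticks overlap H3K4me1 and grey ones do not, and dotted lines join each mouse far peak with a sequence match to the place of its best match in pig; Sox11-Dcdc2c has 2 such lines for 11 mouse peaks and Bcl11a-Fancl 5 for 9.

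Few of all mouse far peaks searched, matched or not, had a match that carried H3K27ac in pig. The match overlapped a pig H3K27ac peak for 22 of the 436 mouse far peaks, 5.05% (3.36 to 7.52), and 18 of these were pig far peaks. These 22 lay in 15 deserts, among them the 5 whose sequences are printed above. It overlapped a pig H3K4me1 peak for 109, 25% (21.2 to 29.3), and either mark for 112, 25.7% (21.8 to 29.99). Of the pig deserts searched, 181 Mb in all, H3K27ac covered 0.789% and H3K4me1 13.4%.

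Of the 188 far peaks with a match, 11.7% (7.86 to 17.1) had pig H3K27ac there and 58.0% (50.8 to 64.8) pig H3K4me1. Pig H3K27ac lay within 5 kb of the match for 43 of these 188, 22.9% (17.4 to 29.4). Of the bases of the pig deserts, 7.37% lay that close to H3K27ac, again a cover per base and not a share of peaks. Mouse H3K4me1 peaks of the same deserts without H3K27ac, over 250 kb from a coding start, were searched the same way. They matched more often, in 1711 of 2302 cases, 74.3% (72.5 to 76.1), and were longer, with a median width of 3376 bp. Pig H3K4me1 lay at the match in 51.4% of these 1711, and pig H3K27ac in 5.32% (4.35 to 6.49). This H3K27ac interval lay below that of the far peaks with a match. Over all peaks searched, matched or not, the shares with pig H3K27ac at a match were 5.05% for far peaks and 3.95% (3.23 to 4.83) for those H3K4me1 peaks, with intervals that overlap.

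Among the mouse far peaks, those with H3K4me1 matched pig DNA more often. A match was found for 141 of 209 with H3K4me1, 67.5% (60.8 to 73.5), and for 47 of 227 without, 20.7% (15.9 to 26.4). The peaks without H3K4me1 were narrower, with a median of 1564 bp against 2947 bp, and held fewer unmasked bases, 1217 against 2499. Within the width classes given above, the shares with and without H3K4me1 were 36.0% and 9.73%, 56.5% and 22.9%, and 84.8% and 45.5%. The share with H3K4me1 was the higher one in each width class, with 25 peaks in the smallest group. Within the classes the peaks with H3K4me1 still held more unmasked bases, with medians of 875 against 593, 1937 against 1561 and 3311 against 3249. The part of size in the difference was not tested.

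The search was also run from pig to mouse. Of the 626 pig far peaks in these deserts, 193 matched the mouse desert with the same borders, 30.8% (27.3 to 34.6), and for 32, 5.11% (3.64 to 7.13), the match overlapped mouse H3K27ac, which covered 1.32% of the mouse deserts. Mouse H3K4me1, which covered 9.17%, was overlapped for 124, 19.8% (16.9 to 23.1). Both covers are per base, while a pig peak counted if any of its matches touched a mouse peak. With H3K4me1 in pig, 173 of 468 matched, 37.0% (32.7 to 41.4), and without it 20 of 158, 12.7% (8.35 to 18.7). The median widths of these groups were 862.5 and 876.5 bp. Their unmasked bases were not counted, so the part of the length searched was not tested.

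**Figure D5:**
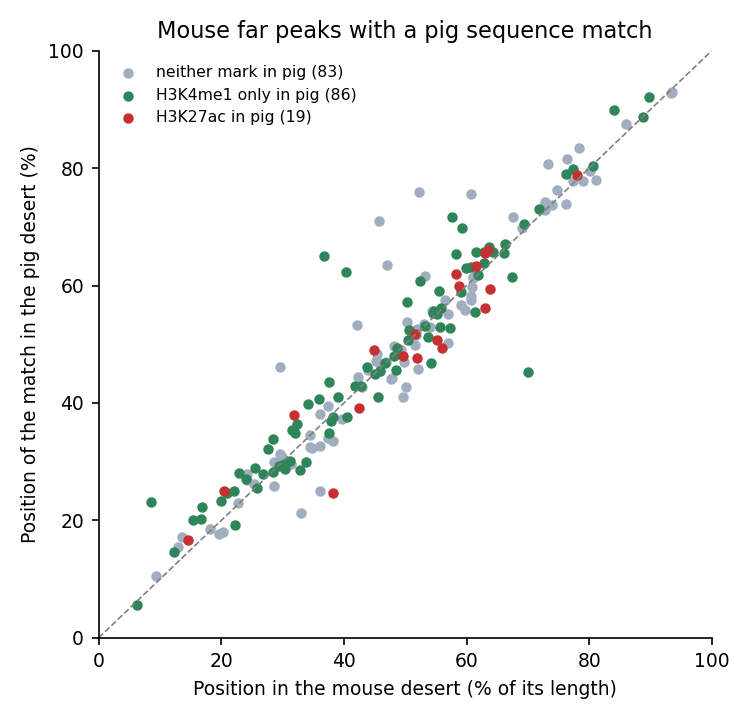
Position of the 188 mouse far peaks with a sequence match in the pig desert of the same borders (horizontal axis, percent of the mouse desert's length) against the position of the best match (vertical axis, percent of the pig desert's length). Colours give the pig peaks at the best match alone, H3K27ac for 19, H3K4me1 without H3K27ac for 86 and neither for 83; most points lie by the dashed line of equal position, with 151 of 188 within 5 points.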

How the data were processed

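The authors deposited 6 lists of peak positions (chromosome, start and end, with no score or signal), 1 consensus per species and modification. Per the series' design text, reads of 50 bp, some cropped from 100 bp, were aligned to GRCm38 or Sscrofa11.1 with broad peak calling at an irreproducible discovery rate (IDR) under 0.01. Libraries were sequenced at 100 bp except those of pig H3K27ac and H3K4me3, at 50 bp. The submitters' processing notes list Bowtie2 2.3.5, SAMtools 1.9, deepTools 3.5, Trimmomatic 0.39 and FastQC 0.11.9. Which caller made the peaks is not given in sources used here. The depth per sample is unknown. For pig H3K4me1 the design text gives 1 biological replicate and the labels 2 samples.

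Peaks were placed on the RefSeq annotation of the same builds with Python 3.11.15, numpy 2.4.6 and pandas 2.3.3, and 15 mouse and 349 pig H3K27ac peaks on unplaced scaffolds were left out. Every annotated transcript start of a coding gene counted, and an overlap was 1 bp or more. Sequences were searched with blastn 2.17.0 at an E value of 1e-10 or lower, with repeats masked. Distance and overlap code was first tested on simulated data. Genes are named if they border the 10 fullest deserts of a species, the 10 same-border deserts with the largest smaller count, or stand in a gene list and border a far peak; others are said to be chosen after their values were seen. Members, lists and families were chosen with earlier results of these data known.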

Additional observations from a re-analysis of the deposited data

How the results depend on the processing

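Of 88 values under alternative settings, 56 stayed within counting error of the reported value or within 1.5 times a reported count, and 32 moved. With the starts of all annotated genes, non-coding included, 122 mouse and 518 pig far peaks were left, in 73 and 230 deserts, 21 with the same borders and far peaks in both species. H3K4me1 overlapped 41.0% and 60.8% of them, 25.4% and 29.9% lay inside a coding gene, and the mouse median width was 1938 bp. Among the wider 50% of H3K27ac peaks, 342 mouse and 445 pig far peaks lay in 192 and 218 deserts, 56 of them shared, with median widths of 3990 and 1518 bp, 69.3% with H3K4me1 in mouse and 18.9% inside genes in pig. With a limit of 200 kb, 71.2% of pig far peaks overlapped H3K4me1, and 18.9% of mouse and 28.9% of pig far peaks lay inside genes, against 11.98% and 21.5% with 300 kb and 27.9% and 34.9% with 1 start per gene. Joining peaks within 3 kb gave median widths of 2469 and 962 bp. Taking as borders the nearest genes named in both species raised the shared deserts to 207. The share of border genes in transcription factor families was 15.6% in mouse and 14.6% in pig for deserts with at least 3 far peaks. Added after seeing the data, counting a sequence match only in pig H3K27ac gave 5.05% in place of 25.7%. The H3K4me3 distance, the 50% cover, the middle of the peak, the E value and mouse Zfp read as Znf left their values as reported within those limits. No paired analysis was possible because each list is a consensus over its replicates, and no replicate could be left out for the same reason. With no depth or score per peak, a desert without a far peak may hold marked DNA below the calling limit.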
